A study of Saccharomyces cerevisiae with 4 samples.

Results

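Genes for structural proteins of the yeast cell wall, for the enzymes that build and remodel it, and for the Slt2 wall integrity pathway were compared between a budding yeast strain (Saccharomyces cerevisiae) in which 9 Myc epitopes were joined to the N terminus of Swd2 (9Myc-Swd2) and an untagged wild type (WT). The 38 genes were chosen by name, as the rows of the deposited table whose symbol is on a list of wall genes, out of 6697 genes in all. They fall into 4 PIR proteins, 11 GPI mannoproteins, 15 glucan and chitin enzymes, 3 genes of the SUN family and TOS1, 2 yapsins and 3 genes of the Slt2 pathway. 5 of them (PIR1, PIR3, CWP1, CWP2 and KDX1) lie on chromosome XI and are described apart, because nearly all genes of that chromosome were higher in 9Myc-Swd2.

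Each group had 2 RNA-seq libraries of total RNA, from cells in rich glucose medium at 30 °C taken at an OD600 of 1.0. The series describes the strains as isogenic; no source used here gives the strain background, the mating type or the number of clones. Swd2 is a WD-repeat subunit shared by the Set1 histone methyltransferase complex and the cleavage and polyadenylation factor. No label says that the libraries of 1 strain stem from separate cultures, and p-values therefore describe the scatter of these 4 libraries, which could be technical.

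The yeast wall is a mesh of beta-glucan with a little chitin, covered by an outer layer of heavily mannosylated proteins. GPI proteins are cut from their lipid anchor at the plasma membrane and joined to glucan, and PIR proteins (proteins with internal repeats) are bound to glucan directly. When the wall is weakened, membrane sensors act through Rho1, Pkc1 and a kinase cascade on the MAP kinase Slt2, which activates the transcription factor Rlm1; many wall genes are transcribed under its control, and others under that of the cell cycle factor Swi4.

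Reads on genes numbered 7849193 and 8316221 in the 9Myc-Swd2 libraries and 8388090 and 8327878 in the WT libraries. Values below are the authors' normalized read counts (reads divided by 1 size factor per library) in library 1 and then library 2 of each group. SWD2 itself stood at 1080 and 969 in 9Myc-Swd2 and at 335 and 351 in WT; it lies on chromosome XI too, whose genes made up 9.66% and 9.41% of the reads in 9Myc-Swd2 and 5.78% and 5.80% in WT. The alpha pheromone gene MF(ALPHA)1 was read at 6161 and 5518 in 9Myc-Swd2 and at 6353 and 6966 in WT, and the a-cell receptor gene STE2 at 160 and 173 in 9Myc-Swd2 and at 165 and 120 in WT. Off chromosome XI, 2 of 6 a-specific genes were higher in 9Myc-Swd2, where 18.5% of all genes off that chromosome were, and 2 of 3 alpha-specific genes were lower, where 22.6% were. Of the a-specific genes with a mean of at least 40 normalized counts, 1 was higher. This was STE6, which lies on chromosome XI, where 90.6% of genes were higher. The 2 off that chromosome that were higher averaged less than 40 over the 4 libraries. They were MFA1 (means of 51.3 in 9Myc-Swd2 and 16.8 in WT) and AGA2 (42.7 in 9Myc-Swd2 and 16.8 in WT). Whether these differences bear on the wall genes was not tested.

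Promoter windows are shown for members picked with their calls known: 3 genes that rose and hold a match to the Rlm1 motif, HSP150, which did not pass and holds 2 matches to the pattern marked below, and SCW10 and KDX1, the members with the largest fall and the largest rise of the 38, which hold none. DAN1 and SUN4, which hold the marked pattern and did not pass, are not shown. Each window runs from 250 bases before the start codon to 50 bases from it onward, on the coding strand, in the RefSeq R64 assembly, which is the genome that sacCer3 names. Capitals mark the letters CTA, any 4 bases and TAG, found on either strand; the motif is its own reverse complement.
CCW14 promoter, chrXII:903474-903773, plus strand: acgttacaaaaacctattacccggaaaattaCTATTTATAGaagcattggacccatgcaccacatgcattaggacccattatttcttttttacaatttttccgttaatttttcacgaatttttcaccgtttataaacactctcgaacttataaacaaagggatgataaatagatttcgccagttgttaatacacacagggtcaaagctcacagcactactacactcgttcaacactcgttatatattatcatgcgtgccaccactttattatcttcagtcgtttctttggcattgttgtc
GAS5 promoter, chrXV:267937-268236, plus strand: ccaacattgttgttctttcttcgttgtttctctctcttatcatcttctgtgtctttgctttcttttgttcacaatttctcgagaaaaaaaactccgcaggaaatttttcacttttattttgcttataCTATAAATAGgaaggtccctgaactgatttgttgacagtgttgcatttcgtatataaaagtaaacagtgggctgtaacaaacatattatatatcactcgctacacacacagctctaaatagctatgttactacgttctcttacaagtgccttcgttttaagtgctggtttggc
BGL2 promoter, chrVII:1058675-1058974, minus strand: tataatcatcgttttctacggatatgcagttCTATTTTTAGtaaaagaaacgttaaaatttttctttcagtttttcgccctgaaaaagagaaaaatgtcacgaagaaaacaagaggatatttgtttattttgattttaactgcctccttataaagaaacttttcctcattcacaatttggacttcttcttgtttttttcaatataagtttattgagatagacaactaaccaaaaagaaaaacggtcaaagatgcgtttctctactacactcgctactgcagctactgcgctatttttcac
HSP150 promoter, chrX:120199-120498, plus strand: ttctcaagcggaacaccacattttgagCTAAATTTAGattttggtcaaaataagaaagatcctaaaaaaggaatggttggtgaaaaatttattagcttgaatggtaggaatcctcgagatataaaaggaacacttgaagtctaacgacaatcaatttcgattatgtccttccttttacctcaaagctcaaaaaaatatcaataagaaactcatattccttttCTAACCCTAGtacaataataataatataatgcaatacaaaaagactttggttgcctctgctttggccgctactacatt
SCW10 promoter, chrXIII:880183-880482, minus strand: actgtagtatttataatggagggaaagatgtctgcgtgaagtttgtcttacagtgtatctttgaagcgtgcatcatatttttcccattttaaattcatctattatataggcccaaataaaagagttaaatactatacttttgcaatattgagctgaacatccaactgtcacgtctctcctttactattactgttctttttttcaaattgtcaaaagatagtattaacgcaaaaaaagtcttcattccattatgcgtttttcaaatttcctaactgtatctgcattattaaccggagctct
KDX1 promoter, chrXI:150638-150937, minus strand: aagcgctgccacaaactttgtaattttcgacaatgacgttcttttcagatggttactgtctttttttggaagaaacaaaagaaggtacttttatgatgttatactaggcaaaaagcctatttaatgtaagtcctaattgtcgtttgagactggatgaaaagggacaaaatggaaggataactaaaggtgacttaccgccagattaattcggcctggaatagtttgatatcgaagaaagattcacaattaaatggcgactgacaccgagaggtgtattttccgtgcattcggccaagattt
This pattern was present in 335 of the 6013 promoters of table genes that have such a window (5.57%). It was present in 6 of the 38 members, namely HSP150, DAN1, CCW14, GAS5, BGL2 and SUN4. In DAN1 the match lies after the start codon, within the coding sequence. The stricter form, in which the 4 free bases are A or T as in the Rlm1 motif, was present in 60 promoters (1.0%) and in CCW14, GAS5, BGL2 and HSP150. In HSP150 CTAAATTTAG is of this form and CTAACCCTAG is not. The stricter form was not among the patterns planned, and its counts were not tested. Of the members on other chromosomes than XI the stricter form stood in 3 of the 7 that rose, 0 of the 12 that fell and 1 of the 14 that did not pass. The looser form stood in 3, 0 and 3 of these genes. The Swi4 motif, CNCGAAA on either strand, which does not overlap the other pattern in any member, was present in 829 of 6013 promoters (13.8%) and in 7 members (GAS3, UTR2, CHS2, CHS3, SIM1, SUN4 and YPS3). It stood in 2 of the 7 members off chromosome XI that rose, 2 of the 12 that fell and 3 of the 14 that did not pass. A match is a run of letters and not a measured binding site, and these windows reach only part of each promoter.

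The wall genes moved in both directions. Of the 38 members, all of which passed the filter on low values, 11 were higher in 9Myc-Swd2 (28.9%), against 22.3% of the 6503 genes tested, and 12 were lower (31.6%), against 21.4% of all genes, at an adjusted p under 0.05 in limma-trend, a linear model with moderated variances fitted to log2(value + 1) across all genes with Benjamini-Hochberg adjustment. The other 15 did not pass. Off chromosome XI, 7 of the 33 members were higher (21.2%), where 18.5% of all such genes were, and 12 were lower (36.4%), where 22.6% were. Their median log2 fold change of 9Myc-Swd2 over WT was -0.02, the same as the -0.02 of all genes off chromosome XI. The median absolute log2 fold change was 0.24 for these members and 0.21 for genes off chromosome XI with a mean of at least 40. Of the 33 members, 1 rose by at least 1.5-fold, CCW14, where 3.78% of all genes off chromosome XI did. By the same measure 4 of the 33 fell, SCW10, TIR1, GAS1 and CIS3, where 4.54% of all genes off chromosome XI did. In 22 of the 33 the libraries of the groups did not overlap; this was so for 70.3% of genes off chromosome XI. Reads of all 38 members made up 2.47% and 2.27% of the 9Myc-Swd2 libraries and 2.33% and 2.38% of the WT libraries, so that the summed level did not separate the groups.

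**Figure D1:**
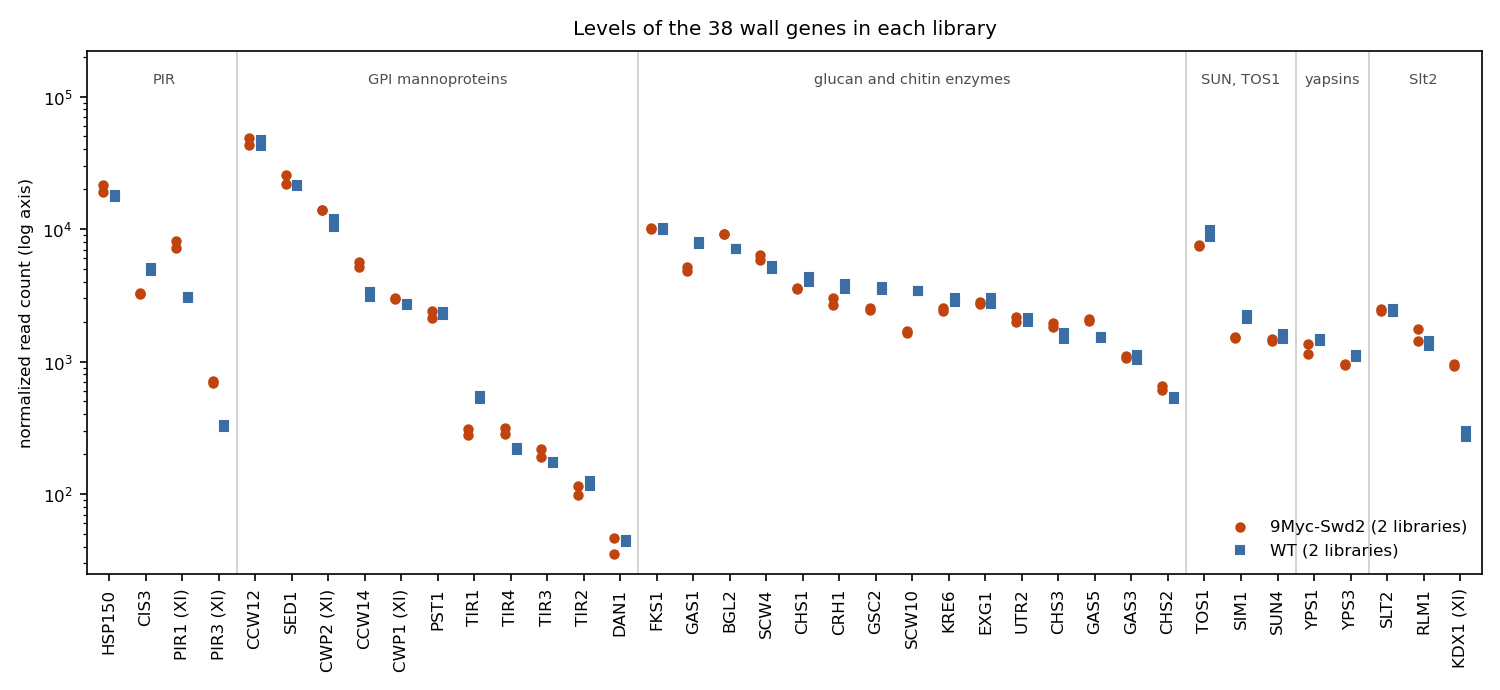
Normalized read count of each of the 38 wall genes (log axis) in the 2 9Myc-Swd2 libraries (circles) and the 2 WT libraries (squares), by class and in order of the WT mean within a class; XI marks genes on chromosome XI. PIR1, PIR3 and KDX1 stand well above their WT squares, SCW10, GAS1, TIR1 and CIS3 well below, and CCW12, FKS1 and SLT2 overlap theirs.

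Among the PIR proteins, both chromosome XI genes rose, CIS3 fell and HSP150 did not pass. PIR1 (YKL164C, chromosome XI, 141794 to 142819, minus strand) had 8089 and 7151 normalized counts in 9Myc-Swd2, against 3063 and 3001 in WT. PIR3 (YKL163W, 144401 to 145378, plus strand), which is transcribed away from PIR1 across 1581 bases that hold no other annotated gene, had 708 and 683 in 9Myc-Swd2, against 330 and 318 in WT. Both tagged libraries lay above both WT libraries for each gene, with log2 fold changes of 1.33 ± 0.07 (standard error, SE; adjusted p = 3.78e-10) and 1.10 ± 0.09 (adjusted p = 1.36e-08). CIS3 (YJL158C, chromosome X, 122265 to 122948, minus strand), the shortest of the 4, had 3307 and 3215 in 9Myc-Swd2, against 4782 and 5049 in WT, a log2 fold change of -0.59 ± 0.07 (adjusted p = 1.94e-06). HSP150 (YJL159W, 120449 to 121690, plus strand), a PIR protein named for its induction by heat shock, ends 574 bases from CIS3 and is transcribed towards it. It had 21640 and 18891 in 9Myc-Swd2, against 17368 and 18223 in WT; the groups did not overlap, but the log2 fold change of 0.18 ± 0.10 did not pass (adjusted p = 0.14), and it passed only without 9Myc-Swd2 replicate 2 (0.28, adjusted p = 0.015). Leaving out a library leaves 1 in its group, which is assumed to vary like the other group, here and below; since the WT pair differed less (chi-square per gene of 8.66 between the 9Myc-Swd2 libraries and 3.37 between the WT libraries), a call gained without a 9Myc-Swd2 library does not show a firmer difference. These genes share repeats: 6.14% of the 50-base stretches of PIR1, 6.46% of those of PIR3, 2.52% of those of CIS3 and 1.34% of those of HSP150 also occur elsewhere in the genome, so a small part of their reads could be assigned to a relative. The other 34 members hold no such stretch.

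Of the 11 GPI mannoproteins, 3 rose, 1 fell and 7 did not pass. Off chromosome XI 2 of 9 rose (22.2%, near the 18.5% of all genes) and 1 fell (11.1%, where 22.6% of all genes did). The libraries of the groups overlapped in 4 of the 11 (TIR2, DAN1, CCW12 and PST1). CCW14 (YLR390W-A, chromosome XII, 903724 to 904440, plus strand), a protein of the inner wall layer, rose with 5668 and 5155 in 9Myc-Swd2, against 3057 and 3319 in WT, a log2 fold change of 0.76 ± 0.07 (adjusted p = 2.16e-07). TIR1 (YER011W, chromosome V, 175248 to 176012, plus strand), a mannoprotein of the family induced by cold and lack of oxygen, fell, with 279 and 309 in 9Myc-Swd2, against 525 and 546 in WT (log2 fold change of -0.86 ± 0.09, adjusted p = 9.9e-07). Its relative TIR4 (YOR009W, chromosome XV) rose, with 314 and 283 in 9Myc-Swd2, against 216 and 221 in WT (0.45 ± 0.11, adjusted p = 0.00296). The other members of this group did not pass: TIR2 stood at 97.8 and 116 in 9Myc-Swd2 and at 115 and 126 in WT, TIR3 at 189 and 218 in 9Myc-Swd2 and at 170.1 and 173 in WT, and DAN1, which is repressed by oxygen, at 35.1 and 46.4 in 9Myc-Swd2 and at 43.7 and 44.7 in WT. Of these 3, TIR3 passed only without 9Myc-Swd2 replicate 1 (log2 fold change of 0.34, adjusted p = 0.0495).

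CCW12, SED1 and PST1 did not pass. CCW12, a small protein needed for wall stability, had 48400.2 and 42727 normalized counts in 9Myc-Swd2 and 42650.1 and 46703 in WT, and the groups overlapped (log2 fold change of 0.03, 95% interval -0.24 to 0.30; -0.33 and adjusted p = 0.020 in limma-trend after quantile normalization). Per kilobase of coding length its mean was 113342 normalized counts in 9Myc-Swd2 and 111135 in WT, which ranked first of the 38 in both groups, followed by CWP2 and SED1. SED1, the main GPI protein of stationary cells, had 25479 and 21774 in 9Myc-Swd2 and 21360 and 21047 in WT (0.15 ± 0.10); it passed only without 9Myc-Swd2 replicate 2 (0.27, adjusted p = 0.032). PST1, a secreted GPI protein whose transcript is widely used as a sign of wall damage, had 2421 and 2119 in 9Myc-Swd2 and 2376 and 2234 in WT, with overlapping groups and a 95% interval of -0.18 to 0.13.

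The chromosome XI pair CWP1 and CWP2 rose less than most genes of their chromosome. CWP2 (YKL096W-A, 259253 to 259531, plus strand), a major mannoprotein joined to glucan, had 13912 and 14004 in 9Myc-Swd2, against 10285 and 11852 in WT, a log2 fold change of 0.34 ± 0.09 (adjusted p = 0.00524; 0.24 and adjusted p = 0.16 without WT replicate 1). CWP1 (YKL096W, 261132 to 261851, plus strand), a mannoprotein found at birth scars, had 2953 and 2997 in 9Myc-Swd2 and 2651 and 2696 in WT, and did not pass (log2 fold change of 0.15 ± 0.07, adjusted p = 0.067). The WT libraries of CWP2 lay apart (11069 ± 1108, SD, n = 2). Both genes stood below the median log2 fold change of chromosome XI, which was 0.90 over its 342 genes tested. Of those 342 genes 90.6% were higher, and 4 of the 5 members were.

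To set the 5 members against their own chromosome, each library was rescaled by the median of ratios over chromosome XI genes and the same test was run on those genes. Relative to the chromosome, KDX1 (log2 difference of 0.83 ± 0.09, adjusted p = 2.09e-05) and PIR1 (0.42 ± 0.06, adjusted p = 0.000225) were higher in 9Myc-Swd2, where 25.1% of chromosome XI genes were. CWP1 (-0.75 ± 0.05, adjusted p = 8.15e-07) and CWP2 (-0.57 ± 0.08, adjusted p = 0.000143) were lower, where 24.9% were. PIR3 did not pass (0.20 ± 0.08, adjusted p = 0.060; it passed when libraries were scaled to their summed chromosome XI reads, with 0.32 and adjusted p = 0.00761). Among the chromosome's genes, KDX1 stood at percentile 99.4, PIR1 at 89.2, PIR3 at 73.7, CWP2 at 9.06 and CWP1 at 5.56. More copies of the chromosome and more RNA per copy cannot be told apart in these data.

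**Figure D2:**
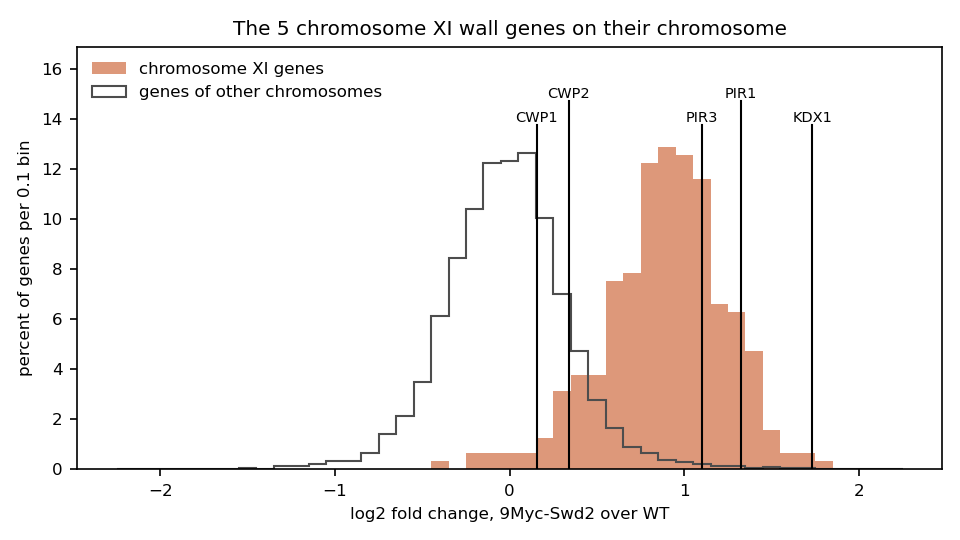
Percent of genes per 0.1 bin of log2 fold change (9Myc-Swd2 over WT) for chromosome XI genes (filled) and genes of the other chromosomes (line), for those averaging 40 or more normalized counts; vertical lines mark the 5 wall genes on chromosome XI. CWP1 (0.15) and CWP2 (0.34) lie in the lower tail of the chromosome XI genes, PIR3 (1.10) and PIR1 (1.33) in the upper part and KDX1 (1.73) at the upper edge.

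Of the 15 enzymes of glucan and chitin, none of them on chromosome XI, 5 rose, 6 fell and 4 did not pass. The 33.3% that rose stand beside 18.5% of all genes off that chromosome, and the 40% that fell beside 22.6%. These shares of all genes include genes with few reads, down to a mean of 1. The largest fall among the 38 was that of SCW10 (YMR305C, chromosome XIII, 879063 to 880232, minus strand), a wall protein related to glucanases. It had 1707 and 1652 normalized counts in 9Myc-Swd2, against 3418 and 3424 in WT, a log2 fold change of -1.03 ± 0.07 (adjusted p = 1.32e-09), which put its level at 0.49 of that in WT. Its close relative SCW4 (YGR279C, chromosome VII) had 6345 and 5872 in 9Myc-Swd2, against 4978 and 5287 in WT, and rose (0.25 ± 0.07, adjusted p = 0.011). BGL2 (YGR282C), the major glucanase and glucan transferase of the wall, which lies 7824 bases from SCW4, rose as well, with 9175 and 9232 in 9Myc-Swd2, against 7046 and 7073 in WT (0.38 ± 0.07, adjusted p = 0.000476). EXG1, the main exoglucanase, stood at 2830 and 2698 in 9Myc-Swd2 and at 3007 and 2741 in WT, with overlapping groups.

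The glucan-elongating GAS enzymes also split. GAS1 (YMR307W, chromosome XIII, 887003 to 888682, plus strand), the main member of the family in growing cells, fell, with 5213 and 4784 in 9Myc-Swd2, against 7717 and 8032 in WT (log2 fold change of -0.66 ± 0.07, adjusted p = 1.58e-06). It lies 6770 bases from SCW10, and the only annotated gene of the table between them is FKS3, a relative of the glucan synthase genes, which had 603 and 601 in 9Myc-Swd2 and 713 and 635 in WT and did not pass (-0.16 ± 0.08, adjusted p = 0.13). GAS5 (YOL030W) rose, with 2100.1 and 2031 in 9Myc-Swd2, against 1523 and 1517 in WT (0.44 ± 0.07, adjusted p = 3.52e-05). GAS3 stood at 1099.5 and 1062 in 9Myc-Swd2 and at 1029 and 1112 in WT. Of the enzymes that join chitin to glucan, CRH1 fell, with 3025 and 2678 in 9Myc-Swd2, against 3840 and 3530 in WT (-0.37 ± 0.08, adjusted p = 0.000679), and UTR2 overlapped, at 2167 and 1998 in 9Myc-Swd2 and 2117 and 1992 in WT.

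Of the alternative catalytic subunits of the glucan synthase, GSC2 fell and FKS1 did not pass. FKS1, the subunit of growing cells, stood at 9924 and 10115 in 9Myc-Swd2 and at 10153 and 9885 in WT, a log2 fold change of 0.00 with a 95% interval of -0.17 to 0.17. GSC2 (YGR032W), which is known for induction by wall stress and by poor carbon sources, fell, with 2442.5 and 2547 in 9Myc-Swd2, against 3675 and 3465 in WT (-0.52 ± 0.07, adjusted p = 8.56e-06). KRE6, needed to make the glucan to which GPI proteins are joined, had 2526.5 and 2413 in 9Myc-Swd2, against 2835 and 2998 in WT (-0.24 ± 0.07, adjusted p = 0.00805; -0.20 and adjusted p = 0.14 without WT replicate 2); its relative SKN1 had 0.14 ± 0.07 and did not pass (adjusted p = 0.12).

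The chitin synthase genes moved by small amounts in opposite directions. CHS1, which repairs chitin when daughter cells separate, had 3531 and 3572 in 9Myc-Swd2, against 4359 and 3972 in WT (log2 fold change of -0.23 ± 0.07, adjusted p = 0.014). CHS3, which makes most of the wall's chitin, had 1830 and 1938 in 9Myc-Swd2, against 1630 and 1472 in WT (0.28 ± 0.07, adjusted p = 0.00403). CHS2, which forms the primary septum, had 605 and 655 in 9Myc-Swd2, against 540 and 522 in WT (0.25 ± 0.08, adjusted p = 0.023). Their groups did not overlap. Without WT replicate 1, CHS1 (log2 fold change of -0.16, adjusted p = 0.23) and SCW4 (0.21, adjusted p = 0.15) did not pass, and without WT replicate 2 CHS3 did not (0.21, adjusted p = 0.12). CHS2 did not pass without 9Myc-Swd2 replicate 2 (0.19, adjusted p = 0.11), WT replicate 1 (0.27, adjusted p = 0.086) or WT replicate 2 (0.22, adjusted p = 0.17), nor in the authors' deposited table (adjusted p = 0.12).

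**Figure D3:**
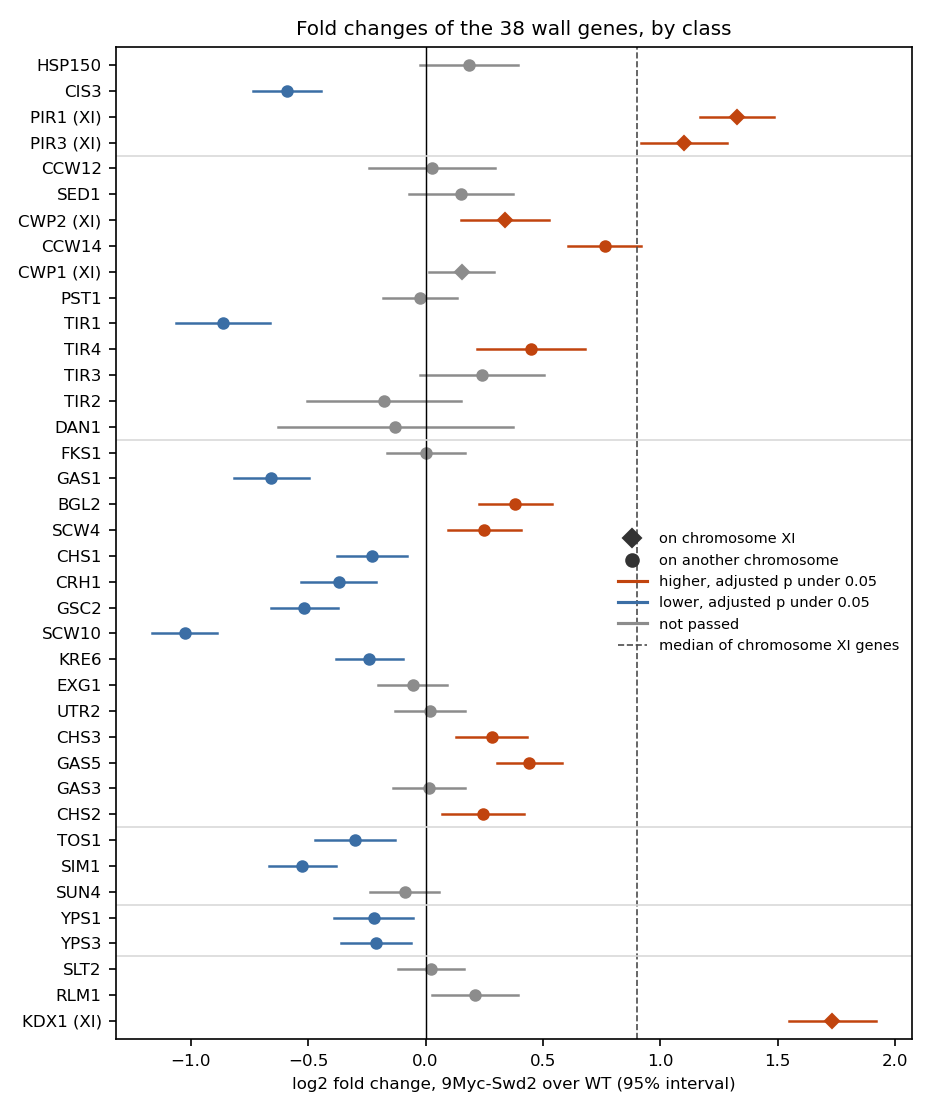
Log2 fold change of 9Myc-Swd2 over WT (points) with its 95% interval (lines) for the 38 wall genes by class, colored by the limma-trend call at an adjusted p of 0.05; diamonds are chromosome XI genes and the dashed line is the chromosome XI median (0.90). The glucan and chitin enzymes spread from -1.03 (SCW10) to 0.44 (GAS5), and KDX1 reaches 1.73 while SLT2 stays at 0.02.

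Because both genes of a pair are read in the same library, their ratio does not depend on that library's size factor, and 9 pairs of related members chosen after their values were seen are given this way. SCW4 was read at 3.72 and 3.55 times SCW10 in 9Myc-Swd2, against 1.46 and 1.54 times in WT. GAS5 was at 0.403 and 0.425 of GAS1 in 9Myc-Swd2, against 0.197 and 0.189 in WT. FKS1 was at 4.06 and 3.97 times GSC2 in 9Myc-Swd2, against 2.76 and 2.85 times in WT. The 2 libraries of each strain gave close values. CHS3 was at 0.518 and 0.542 of CHS1 in 9Myc-Swd2, against 0.374 and 0.370 in WT, and HSP150 at 6.54 and 5.88 times CIS3 in 9Myc-Swd2, against 3.63 and 3.61 times in WT. TIR4 was at 1.13 and 0.915 of TIR1 in 9Myc-Swd2, against 0.411 and 0.404 in WT. The neighbours on chromosome XI shifted less: PIR1 was at 11.4 and 10.5 times PIR3 in 9Myc-Swd2, against 9.29 and 9.44 times in WT, and CWP2 at 4.71 and 4.67 times CWP1 in 9Myc-Swd2, against 3.88 and 4.40 times in WT. Each ratio has the gene with the higher fold change on top, so that its direction was set by this choice and the ratios are a description, with no test.

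**Figure D4:**
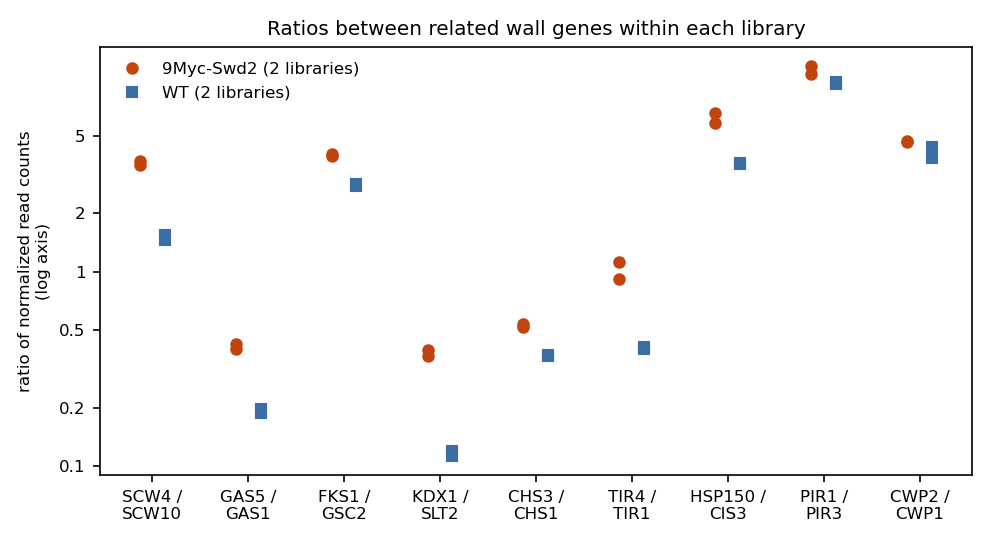
Ratio of the normalized read counts of 2 related wall genes within each library (log axis), in the 2 9Myc-Swd2 libraries (circles) and the 2 WT libraries (squares), for 9 pairs. The pairs SCW4 to SCW10, KDX1 to SLT2 and TIR4 to TIR1 are spread widest. KDX1 lies on chromosome XI, where most genes rose, and SLT2 does not. The gene with the higher fold change was put on top in each pair.

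In the Slt2 pathway the pseudokinase gene rose and the kinase gene did not pass. KDX1 (YKL161C, chromosome XI, 149386 to 150687, minus strand) encodes a pseudokinase related to Slt2, and its transcription is known to depend on Rlm1. It had 924 and 961 in 9Myc-Swd2, against 299 and 267 in WT, a log2 fold change of 1.73 ± 0.09 (adjusted p = 1.39e-10), or 3.32-fold. SLT2 (YHR030C, chromosome VIII) had 2513 and 2419 in 9Myc-Swd2 and 2502 and 2353 in WT, with a 95% interval of -0.12 to 0.17. KDX1 stood at 0.368 and 0.397 of SLT2 in 9Myc-Swd2, against 0.120 and 0.114 in WT. KDX1 lies on chromosome XI, whose genes had a median log2 fold change of 0.90, and SLT2 does not, so this ratio includes that rise. Relative to its chromosome KDX1 had a log2 difference of 0.83 ± 0.09. RLM1 (YPL089C, chromosome XVI) had 1749 and 1419 in 9Myc-Swd2 and 1422 and 1302 in WT. Its library 2 in 9Myc-Swd2 lay below 1 WT library, and the log2 fold change of 0.21 ± 0.09 did not pass (adjusted p = 0.058); it passed with edgeR (quasi-likelihood test, adjusted p = 0.037), with size factors taken off chromosome XI, with the replicate number as a block (0.00404) and without 9Myc-Swd2 replicate 2 (log2 fold change of 0.36), where the spread came from the WT pair alone; without 9Myc-Swd2 replicate 1 the log2 fold change was 0.061 (adjusted p = 0.58).

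Of the remaining members, all off chromosome XI, 4 fell and SUN4 did not pass. Of all genes off that chromosome 22.6% fell. SIM1 (YIL123W, chromosome IX), a SUN family protein, fell, with 1518 and 1495 in 9Myc-Swd2, against 2098 and 2242 in WT (log2 fold change of -0.53 ± 0.07, adjusted p = 6.67e-06). Its relative SUN4, which acts in septation, overlapped, at 1480 and 1418 in 9Myc-Swd2 and 1475 and 1612 in WT. SUN4 passed only with quantile normalization. TOS1, a covalently bound wall protein, had 7434 and 7545 in 9Myc-Swd2, against 8687 and 9801 in WT (-0.30 ± 0.08, adjusted p = 0.00577; 0.16 without WT replicate 2). The yapsins are GPI-anchored proteases that process proteins at the cell surface, and YPS1 and YPS3 are adjacent, 523 bases apart on chromosome XII. YPS1 had 1360 and 1145 in 9Myc-Swd2, against 1475 and 1437 in WT (-0.22 ± 0.08, adjusted p = 0.031), and YPS3 had 964 and 937 in 9Myc-Swd2, against 1119 and 1082 in WT (-0.21 ± 0.07, adjusted p = 0.022). Neither passed in the authors' deposited table (adjusted p = 0.11 and 0.10), without either WT replicate or without 9Myc-Swd2 replicate 2 (-0.10 for YPS1 and -0.19 for YPS3).

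The wider pathway was described with 6 further lists of wall genes, from the same test. Of 25 genes of Pkc1 and Slt2 signalling, none of them on chromosome XI, 5 rose, 2 fell and 18 did not pass, with a median log2 fold change of 0.13. The 20% that rose are near the 18.5% of all genes off chromosome XI, and the 8% that fell stand beside 22.6%. The Rho1 exchange factor gene ROM2 (1868 ± 32.7 in 9Myc-Swd2 and 1430 ± 107 in WT; SD, n = 2 libraries each here and below), the phosphatase gene PTP2 (1193 ± 45.7 in 9Myc-Swd2 and 924 ± 28.2 in WT) and the sensor gene MTL1 (805 ± 69.9 in 9Myc-Swd2 and 634 ± 28.7 in WT) rose, and RHO1 (2427 ± 29.4 in 9Myc-Swd2 and 2982 ± 74.4 in WT) fell. The number that rose was 8 without 9Myc-Swd2 replicate 2 and 2 without WT replicate 2, and 1 fell without WT replicate 2. All 3 further genes used as readouts of Slt2 activity fell: PRM5 (log2 fold change of -0.37 ± 0.07), NCW2 (-0.38 ± 0.07) and YLR042C (-0.77 ± 0.12), the last with 144 and 158 normalized counts in 9Myc-Swd2, against 263 and 254 in WT (adjusted p = 5.28e-05). They lie off chromosome XI, where 22.6% of all genes fell. With a minimum fold of 1.5, 1 of the 3 fell.

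Of 20 other wall mannoproteins 11 rose, 4 fell and 5 did not pass, with a median log2 fold change of 0.38; off chromosome XI 10 of 19 rose (52.6%, where 18.5% of all genes did) and 4 fell (21.1%, where 22.6% did). The genes with the smallest p were FIT3 and FIT2, which retain siderophore-bound iron at the wall (FIT3 had 4854 ± 720.3 in 9Myc-Swd2 and 1311 ± 41.2 in WT, FIT2 1949 ± 275 in 9Myc-Swd2 and 689 ± 63.9 in WT), the flocculin gene FLO10 on chromosome XI (693 ± 21.0 in 9Myc-Swd2 and 240 ± 5.71 in WT) and PRY3 (0.63 ± 0.08). PIR5, a further PIR gene, fell, with 52.1 and 81.7 in 9Myc-Swd2, against 96.9 and 99.1 in WT (-0.58 ± 0.20, adjusted p = 0.028). The number that fell was 1 without 9Myc-Swd2 replicate 2 or without WT replicate 1, and 0 without WT replicate 2. Reads shared with relatives were measured for the 38 members and not for these further genes.

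Of 33 other glucan and chitin genes 9 rose, 5 fell and 19 did not pass, with a median log2 fold change of 0.04. Off chromosome XI 7 of 31 rose (22.6%, near the 18.5% of all genes) and 5 fell (16.1%, where 22.6% of all genes did). The number of the 33 that rose was 5 with quantile normalization, scaling to total reads, limma without a trend or DESeq2, and likewise 5 without 9Myc-Swd2 replicate 1 or without WT replicate 2. DSE4, a septum glucanase (1.52 ± 0.07), and its partner in daughter separation SCW11 (1851 ± 24.5 in 9Myc-Swd2 and 1343 ± 41.2 in WT) rose. GFA1, the first enzyme of chitin precursor synthesis (4761 ± 75.7 in 9Myc-Swd2 and 2261 ± 77.7 in WT), and the SUN family gene UTH1 (1.06 ± 0.08) rose and lie on chromosome XI. Of 29 protein mannosylation genes 10 fell, 3 rose and 16 did not pass, with a median of -0.10; off chromosome XI 10 of 27 fell (37.0%, where 22.6% of all genes did) and 1 rose (3.7%, where 18.5% did). OCH1, which starts the outer chain of N-linked mannan, fell, with 562.5 in both 9Myc-Swd2 libraries, against 1048 and 1022 in WT (-0.88 ± 0.07, adjusted p = 3.79e-08), and MNT4 fell (-0.51 ± 0.10), while MNN4 (0.71 ± 0.07) and KTR2 (0.55 ± 0.08), both on chromosome XI, rose. The number of mannosylation genes that fell was 6 with size factors from genes off chromosome XI, 4 with limma without a trend or DESeq2, 6 without 9Myc-Swd2 replicate 2, 5 without WT replicate 1 and 4 without WT replicate 2. Of 4 other yapsins, YPS6 (0.77 ± 0.10) and MKC7, a paralog of YPS1 (757 ± 43.2 in 9Myc-Swd2 and 574 ± 5.70 in WT), rose, and 2 did not pass. They lie off chromosome XI, where 18.5% of all genes rose.

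**Figure D5:**
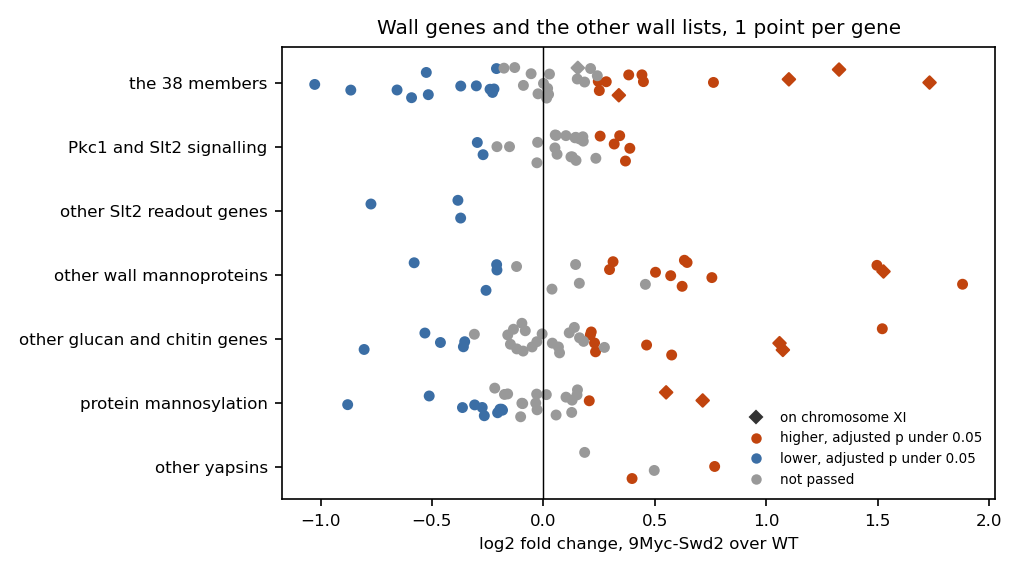
Log2 fold change of 9Myc-Swd2 over WT for each gene (points; vertical scatter within a row is for legibility) of the 38 members and the 6 further wall lists, colored by the limma-trend call; diamonds lie on chromosome XI. The 3 readout genes all lie below 0, the other mannoproteins reach 1.88 (FIT3), and the signalling genes stay between -0.30 and 0.39.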

How the data were processed

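RNA-seq was measured in 2 libraries of 9Myc-Swd2 and 2 of WT, grouped and numbered by the labels. A deposited table covers 6697 genes. The 4 library columns were deposited as a signal: the authors' read counts over a size factor. Dividing by the smallest step gave whole reads for 100% of values (tolerance 1e-06). The authors' own log2 fold changes, their Wald score, their p-values, raw and adjusted, and the log10 group means were deposited beside them; the log10 means were not used. Per the submitters' processing notes, demultiplexing used bcl2fastq 1.8.4 and the build was sacCer3; no source used here names the aligner, the counter or the strand setting, so reads of relatives and of overlapping or antisense genes could not be told apart. No member overlaps another annotated gene in RefSeq.

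Here limma 3.58.1 (R 4.3.3, limma-trend) was fitted to log2(value + 1) of the 6503 genes with a mean of at least 1, with group as the only term; tests are two-sided, Benjamini-Hochberg adjusted, with a threshold of 0.05. A fold change on this scale understates changes of low genes. edgeR 4.0.16 (quasi-likelihood, TMM) and DESeq2 1.42.0 on the recovered reads were alternatives, with other scalings, filters, pseudocounts, a replicate block and each library left out. Chi-square per gene between replicate libraries was 8.66 for 9Myc-Swd2 and 3.37 for WT, so that no library repeated another. Errors of values are SDs. Positions are RefSeq R64, 1-based; all 38 members have 1 coding exon. Genes were named by rule: all 38 members, up to 4 genes with the smallest p per further list, close relatives or neighbours of members (PIR5, SKN1, MKC7, FKS3), and SWD2. Members and lists were chosen with earlier results of these data known.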

Additional observations from a re-analysis of the deposited data

How the results depend on the processing

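The 23 calls among the members were recomputed under 16 alternatives. 13 kept their call and direction in all of them: PIR1, PIR3, KDX1, TIR4, CCW14, GAS5 and BGL2 higher, and CIS3, TIR1, GAS1, SCW10, GSC2 and SIM1 lower. No call turned to the opposite direction. The other 10 (CWP2, CRH1, SCW4, KRE6, CHS1, CHS2, CHS3, TOS1, YPS1 and YPS3) lost their call when limma's trend was dropped, which left 4 higher and 6 lower members off chromosome XI (7 and 12 with the trend); a minimum fold of 1.5 left 1 and 4. For all genes off chromosome XI these numbers were 1138 higher and 1391 lower with the trend, 685 and 880 without it, 683 and 794 without WT replicate 2, and 233 and 280 at 1.5-fold. DESeq2 and the authors' deposited table lost CHS2, YPS1 and YPS3. Both made the same 20 calls among the members. Each change of filter or pseudocount kept all 23. The 16 alternatives are therefore not 16 independent checks. edgeR kept all 23 and added RLM1. The same numbers in both groups do not mark a shared batch in the labels; deviations of same-numbered libraries had a correlation of 0.16 across 5866 genes, which are not independent. With the replicate block all 23 calls were kept and RLM1 (log2 fold change of 0.21, adjusted p = 0.00404) and CWP1 (0.15, 0.038) were added; relative to chromosome XI the block changed no call of the 5 members (KDX1 0.83, adjusted p = 0.00296).

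Genes near 0 that passed in no fit but 1 changed sign with the setting. With quantile normalization CCW12 was at -0.33 (adjusted p = 0.020, the 1 call among the genes given here), GAS3 at -0.059, UTR2 at -0.074 and SLT2 at -0.057. SUN4 passed with this normalization as well. With scaling to total reads CCW12 was at -0.031, GAS3 at -0.044, UTR2 at -0.040, FKS1 at -0.058 and SLT2 at -0.035. The median log2 fold change of all genes was 0.001 in the main fit, -0.029 with quantile normalization and -0.057 with scaling to total reads. The cause was not tested. Leaving out 1 library gave the ranges -0.33 to 0.067 for DAN1, -0.063 to 0.12 for CCW12, -0.12 to 0.072 for PST1, -0.042 to 0.070 for GAS3, -0.040 to 0.077 for UTR2, -0.12 to 0.011 for EXG1, -0.019 to 0.020 for FKS1 and -0.021 to 0.067 for SLT2.

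Limits: 2 libraries a group bound every call. In the list counts, quantile normalization, total scaling and limma without a trend moved the signalling genes that rose (5) to 3, 4 and 2, and the mannosylation genes that fell (10) numbered 6 with size factors from genes off chromosome XI and 4 with limma without a trend and in DESeq2. Mannoproteins that fell (4) numbered 0 with limma without a trend and 2 in DESeq2. Read depth was 7849193 or more reads in every library, and the lowest member, DAN1, was read at 35.1 to 46.4 normalized counts, and its 95% interval of -0.63 to 0.37 on the log2 scale spans most changes of the other members.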
